A study of Mus musculus with 40 samples.

Results

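The genotype comparison after 1 hr of LPS set bone marrow-derived macrophages (BMDMs) of 4 Cpeb4-/- mice against those of 4 WT mice. The labels give the knockout as CPEB4-KO and describe all 8 mice as males whose strain background mixes C57BL/6J and 129; the study's methods call them total knockouts, so every cell of the animal carried the allele, and give the mice as adults. Marrow was cultured for 7 days in medium with L-cell conditioned supernatant, a source of the growth factor M-CSF, and then left untreated or given 10 ng/ml LPS, the outer membrane lipid of Gram-negative bacteria that engages TLR4. Each mouse gave 1 library at 0, 1, 3, 6 and 9 hr, 40 in all, and the 8 libraries of 1 hr are described here, with the 8 of 0 hr beside them. Each gene has an rlog value, a log2 scale that is corrected for library size and pulled toward the gene's mean where reads are few, so differences of weakly expressed genes are understated. Of 27179 genes in the table, 13118 had a mean rlog of at least log2(5) over the 8 libraries, and these were tested.

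CPEB4 is an RNA-binding protein that recognises the cytoplasmic polyadenylation element (CPE), a U-rich motif in the 3′UTR, and recruits the enzymes that lengthen or shorten the poly(A) tail, which sets how well and for how long an mRNA is translated. Macrophages answer LPS within minutes: TLR4 signals through MAP kinases and NF-kB to immediate early genes, cytokines and chemokines, and the same burst includes feedback mRNAs such as those of DUSP1, TNFAIP3 and tristetraprolin (Zfp36) that later end the response. Many of these mRNAs also carry AU-rich elements (AREs, ATTTA), which mark them for decay.

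The libraries did not fall apart by genotype alone. The first principal component held 60.3% of the variance of the tested genes, and on it WT mice 87 and 88 stood at −32.7 and −23.7, WT 25 and 69 at −2.14 and 1.86, and the 4 Cpeb4-/- mice between 0.247 and 22.1. WT 87 and 88 came from the same cage, as did Cpeb4-/- 2 and 3, which stood at 0.247 and 22.1. Each genotype came from 3 cages and no cage held both, so cages were nested within genotypes, and each genotype had 2 mice in each of the 2 labelled batches. Each paragraph below that names genes which passed gives those that no longer passed without WT 87 and 88, a fit of 2 WT against 4 Cpeb4-/- mice. The cells carried the defining macrophage genes at high levels: all 10 fixed markers were tested, and their summed level, on the log2 scale, ran from 19.3 to 19.54 in WT and from 18.94 to 19.16 in Cpeb4-/- cells. The summed markers of neutrophils, B cells, T and NK cells, dendritic cells, fibroblasts and mast cells lay at 6.957 or below in all 8 libraries. Erythroid and platelet markers summed to between 11.77 and 12.94, of which 1 gene, Pf4, passed the filter, and Hbb-bs was listed at 0 in all 8.

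Cpeb4 itself did not separate the genotypes at 1 hr. WT mice 25, 69, 87 and 88 had rlog values of 9.35, 9.46, 7.68 and 8.08, and Cpeb4-/- mice 2, 3, 55 and 62 had 8.22, 9.35, 9.07 and 9.41. The groups overlapped, and the lowest values were those of WT 87 and 88. The difference, Cpeb4-/- minus WT, was 0.37 ± 0.41 (SE, n = 4 and 4 mice), with p = 0.486 in a two-sided exact permutation test whose smallest possible p is 0.0286. It was −0.39 without WT 87 and 88. Cpeb4 lies on chromosome 11 (31870104 to 31935635, mm10). The sources used here do not say which exons the allele lacks. A level summed over the gene does not tell the deleted part from the rest, so the 1 hr value checks no label. In the same mice the Cpeb4 difference was −0.24, −0.55 and −0.31 at 0, 3 and 9 hr, none of which passed limma's test. At 6 hr Cpeb4 was lower in Cpeb4-/- cells, by −1.27 ± 0.19 (adjusted p = 0.00133 by limma). Of the 33 other tested genes within 5 Mb of Cpeb4, 0 passed limma's test after adjustment, and 9 had an unadjusted p under 0.05, a mark that 4631 of all 13118 tested genes met (35.3%).

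At an adjusted p under 0.05 (limma, Benjamini-Hochberg over all tested genes), 251 genes differed between Cpeb4-/- and WT BMDMs, 1.91% of those tested. Of these, 128 (0.976%) were higher in Cpeb4-/- cells and 123 (0.938%) were lower. The differences were mostly modest: their median absolute size was 0.51 on the log2 scale, 121 of the 251 were under 0.5, and 22 reached 1, of which 12 were higher and 10 lower. In all 251 the ranges of the 4 Cpeb4-/- and the 4 WT libraries were disjoint, as they were for 2054 of the tested genes (15.7%), 990 higher and 1064 lower. With WT 87 and 88 left out, 98 genes passed (0.747%), 47 higher and 51 lower, and 67 of the 98 were among the 251. The count moved with single mice as well: it was 718 without Cpeb4-/- 2 and 2437 without WT 69, but 39, 42 and 40 without Cpeb4-/- 3, 55 and 62, and 113, 101 and 63 without WT 25, 87 and 88. With all 40 libraries in a single fit and the mouse as a replicate block, 4337 genes passed at 1 hr (33.1%), 2284 higher and 2053 lower, and these held all of the 251. A core of 34 genes, 15 higher and 19 lower, passed in every fit that tested them, each mouse and the WT pair left out in turn included.

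**Figure D1:**
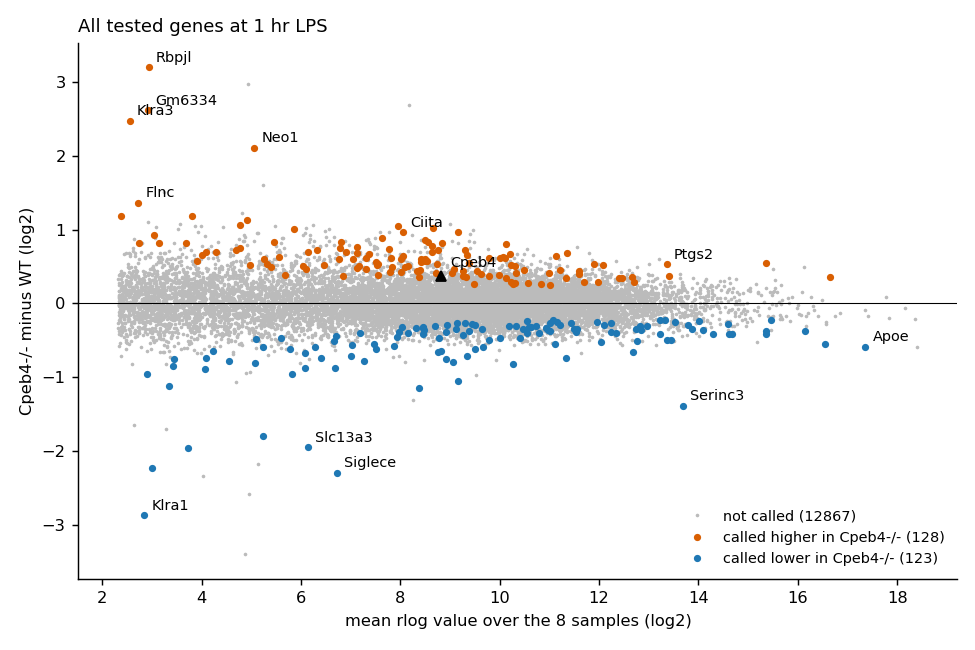
Difference between Cpeb4-/- and WT BMDMs at 1 hr LPS (vertical axis, log2) against the mean rlog value over the 8 libraries (horizontal axis, log2), 1 point a tested gene; genes that passed the test are coloured by direction and the largest are named. The 251 coloured points reach from −2.87 for Klra1 to 3.20 for Rbpjl, and a few grey points, in which mice of the same genotype differed, lie as far out.

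Among the rises, Rbpjl, which encodes a relative of the Notch pathway's DNA-binding factor RBPJ, was the largest. WT mice 25, 69, 87 and 88 had 1.87, 0.66, 1.44 and 1.36, and Cpeb4-/- mice 2, 3, 55 and 62 had 4.60, 4.34, 3.92 and 5.28, a difference of 3.20 ± 0.32 (SE, adjusted p = 0.00227), or 9.19-fold on this scale. No Cpeb4-/- library came near a WT one, and the differences within batches 1 and 2 were 3.19 and 3.21. The WT mean of 1.34 lay under the filter of log2(5), or 2.32, so Rbpjl was tested only because its Cpeb4-/- values were high. Before LPS all 8 libraries lay between 0.25 and 0.30, so the first hour raised Rbpjl by 1.06 in WT and by 4.26 in Cpeb4-/- mice. At 3, 6 and 9 hr the Rbpjl difference was 0.13, 0.24 and 0.24, with adjusted p values of 0.746, 0.56 and 0.441. Sdc4, the next tested gene on the chromosome, encodes a cell surface proteoglycan and differed by −0.25 at 1 hr (adjusted p = 0.0671), and by −0.16 without WT 87 and 88.

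The receptor gene Neo1, which encodes neogenin, had 4.61, 3.19, 4.80 and 3.39 in the WT mice and 6.29, 5.74, 6.12 and 6.29 in the Cpeb4-/- mice, a rise of 2.11 ± 0.35 (adjusted p = 0.024). The WT mice themselves fell into a higher and a lower pair that followed neither the batch nor the cage, since WT 25 and 87 were the higher ones. Fgfr1, a fibroblast growth factor receptor, rose by 1.05 ± 0.17 from 7.12 to 7.93 in WT to 8.27 to 8.63 in Cpeb4-/- cells. Atp10d, of the phospholipid flippase family but listed as a transcribed pseudogene in RefSeq, rose by 1.03 ± 0.16. Flnc, the actin crosslinker filamin C, rose by 1.36 ± 0.16, Cacna1b, a voltage-gated calcium channel subunit, by 1.00 ± 0.17, and Zan, which encodes zonadhesin, by 1.13 ± 0.18. The C-type lectin receptor gene Clec12b rose by 1.19 and Klra3, of the Ly49 receptor family, by 2.47. Of the other large rises, Gm6334 (2.61), Gm15545 (1.06) and Entrez100042464 (1.18) are predicted or unnamed genes. Gm6334 was flat at 1.60 to 1.65 in WT and at 4.0 to 4.4 in Cpeb4-/- mice. The WT means of Gm6334 (1.62), Klra3 (1.32), Flnc (2.04) and Clec12b (1.79) lay under the filter of log2(5). These genes were tested only because their Cpeb4-/- values were high. Without WT 87 and 88, Fgfr1 (0.91), Cacna1b (0.82), Zan (0.93), Clec12b (1.00) and Entrez100042464 (1.01) no longer passed.

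**Figure D2:**
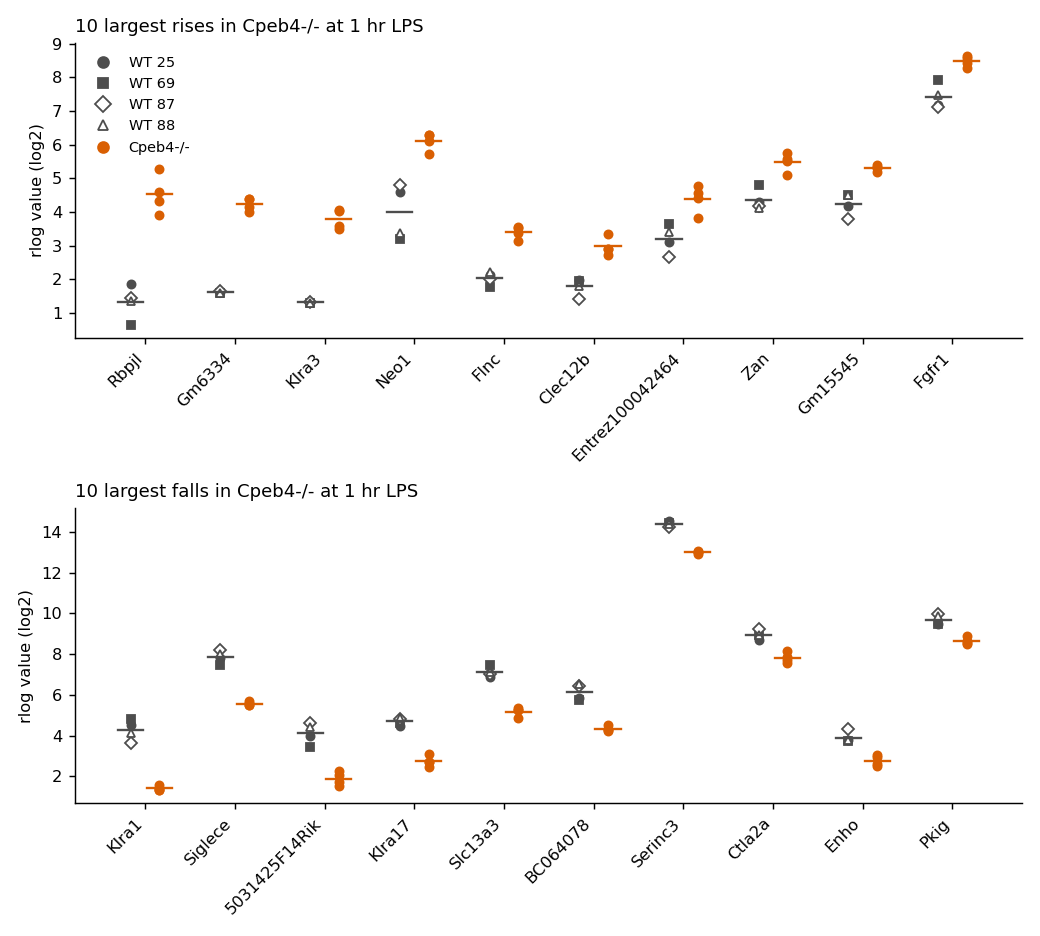
rlog values (log2) of each mouse at 1 hr LPS for the 10 largest rises (upper panel) and the 10 largest falls (lower panel) in Cpeb4-/- BMDMs, with WT mice in grey symbols, Cpeb4-/- mice in orange and horizontal lines at the means of 4. In each of the 20 genes the 2 groups do not overlap, and Neo1 is spread most widely among WT mice.

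Falls were led by Klra1, another Ly49 receptor gene, which had 4.52, 4.80, 3.65 and 4.13 in the WT mice and 1.34 to 1.57 in the 4 Cpeb4-/- mice, a difference of −2.87 ± 0.23 (adjusted p = 0.000518). Siglece, the inhibitory sialic acid receptor Siglec-E of myeloid cells, had 7.81, 7.45, 8.18 and 8.02 in WT and 5.51, 5.49, 5.72 and 5.58 in Cpeb4-/- mice, a difference of −2.29 ± 0.15. Serinc3, a multipass membrane protein gene, had 14.51, 14.42, 14.22 and 14.38 against 12.93, 13.02, 13.00 and 13.04, a difference of −1.39 ± 0.06 (adjusted p = 1.76e-05) that left WT cells 2.61-fold higher. The spread within a genotype was small in all of these beside the gap between genotypes. Slc13a3, a dicarboxylate transporter, fell by 1.94 on the log2 scale, Klra17 by 1.96, Ctla2a, a cathepsin inhibitor-like gene, by 1.14, Pkig, an inhibitor of protein kinase A, by 1.04, and Enho, which encodes adropin, by 1.12. The clone-named genes 5031425F14Rik and BC064078 fell by 2.23 and 1.80. The Cpeb4-/- means of Klra1 (1.41) and 5031425F14Rik (1.89) lay under the filter of log2(5), so both were tested only because their WT values were high. Of these falls, that of Enho did not pass without WT 87 and 88 (−0.98). Klra1, Klra3 and Klra17, and Ctla2a and its neighbour Ctla2b (−0.82), belong to families of near copies, so reads of a member may have been counted for another and their separate values are uncertain.

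Apold1, an immediate early gene first described in endothelium, fell by 0.96 ± 0.13 (adjusted p = 0.00897), from 6.59, 6.41, 6.13 and 6.06 in WT to 5.21, 5.37, 5.36 and 5.42 in Cpeb4-/- mice. Its direction at 1 hr was not that of the untreated cells, in which the Apold1 difference was 0.47 (adjusted p = 0.188). LPS raised it by 2.66, 2.77, 1.81 and 1.84 in the WT mice and by 0.55, 0.84, 0.80 and 1.20 in the Cpeb4-/- mice, so every Cpeb4-/- mouse rose less than every WT mouse. At 3 and 6 hr the Apold1 difference was −1.06 and −0.84, with adjusted p values of 0.0161 and 0.00725.

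By position, 26 of the 251 genes lay in 2 stretches of 10 Mb, chosen after the values were seen. In windows of 5 Mb, 359 of 517 held no gene that passed. On chromosome 2, from 160 to 170 Mb (mm10), 13 of 79 tested genes passed (16.5%), 12 lower and Rbpjl higher, and on chromosome 6 from 125 to 135 Mb 13 of 69 passed (18.8%), 5 higher and 8 lower. Outside them 225 of 12970 passed (1.73%). Of the 24 largest differences, 12 lay in these stretches. Among these 12, Rbpjl, Klra3, Clec12b, Klra1 and 5031425F14Rik were tested only because their values in 1 genotype were high. Without WT 87 and 88, 10 genes of the chromosome 2 stretch and 7 of the chromosome 6 stretch passed, beside 0.747% of all tested genes.

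On chromosome 2 the lower genes included Serinc3, Pkig, Pabpc1l, a poly(A)-binding protein gene (−0.81), Dbndd2 (−0.76), Cd40, the costimulatory receptor (−0.49), Slc13a3, Trp53rka (−0.80), the sulfatase gene Sulf2 (−0.59), 5031425F14Rik, Tmem189 (−0.27) and Cebpb (−0.36). Trp53rka has a near copy in the same stretch, Trp53rkb, which differed by −0.13 (adjusted p = 0.436 by limma). The chromosome 6 stretch covers the natural killer gene complex, which encodes C-type lectin receptors. There Klra1, Klra17, BC064078, Gm15987, Clec2i (−0.59), the early activation antigen gene Cd69 (−0.54), Clec12a (−0.41) and Apold1 fell, while Klra3, Clec12b, Clec1b (0.82), the von Willebrand factor gene Vwf (0.62) and the receptor gene Gpr19 (0.38) rose. Clec12b and Clec1b overlap on the map, and the sources used here do not say whether reads were counted by strand, so their reads may not be told apart. Genes between these, such as Klra2 (−0.24, adjusted p = 0.127) and Gabarapl1 (−0.08, adjusted p = 0.318), did not pass. In untreated cells of the same mice 12 genes of the chromosome 2 stretch and 9 of the chromosome 6 stretch passed, beside 165 of all tested genes (1.26%), and 11 and 7 of these also passed at 1 hr. Of the genes named in the stretches, Dbndd2 (−0.53), Cebpb (−0.26), Gm15987 (−0.80), Clec2i (−0.61), Clec12a (−0.29), Clec12b (1.00), Clec1b (0.92) and Gpr19 (0.33) no longer passed without WT 87 and 88.

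**Figure D3:**
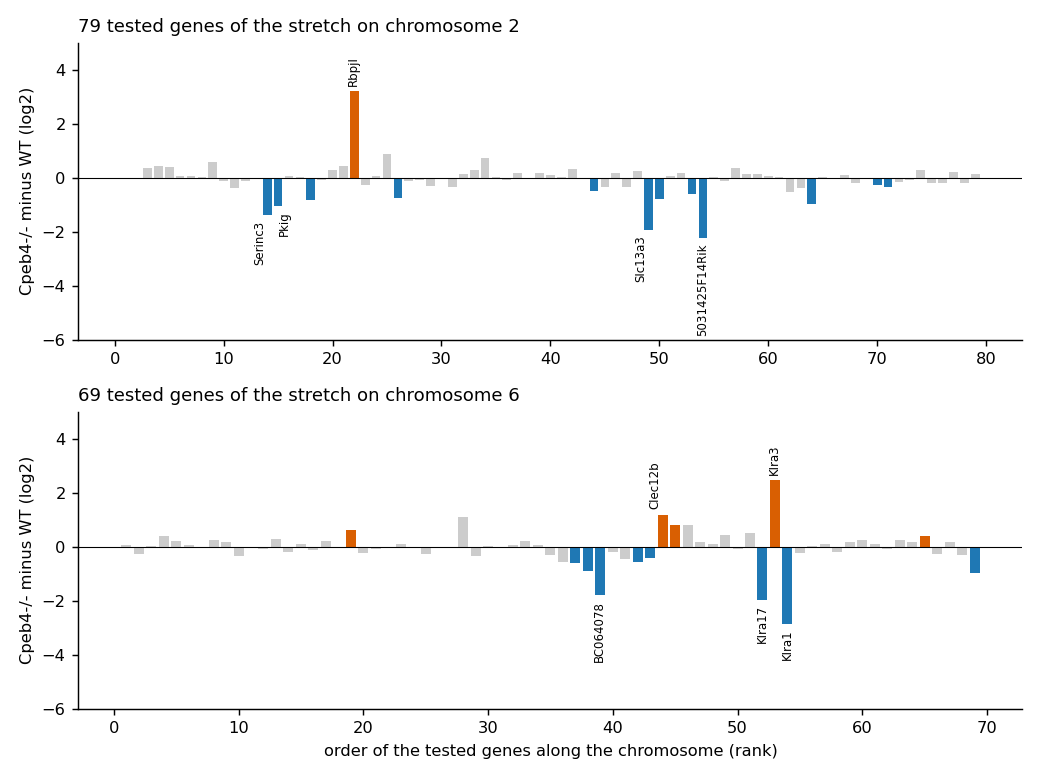
Difference between Cpeb4-/- and WT BMDMs at 1 hr LPS (vertical axis, log2) for every tested gene of the stretches on chromosome 2 (upper panel) and chromosome 6 (lower panel), in map order (horizontal axis, rank); genes that passed the test are orange where higher and blue where lower, and those past 1 are named. Large bars of both signs stand among genes near 0.

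Other windows of 5 Mb held several genes that passed, in mixed directions on chromosomes 8 and 5. On chromosome 8, F7 and F10, adjacent coagulation factor genes, rose by 0.56 and 0.41 beside the exchange factor gene Mcf2l (0.61), and Rab20 fell by 0.30, 4 of 34 tested genes of their 5 Mb window. F7 had 8.12, 8.11, 8.19 and 8.14 in WT and 8.79, 8.71, 8.59 and 8.74 in Cpeb4-/- mice. On chromosome 7, 6 of 55 tested genes from 30 to 35 Mb fell, among them Hpn, a membrane protease (−0.66), and Hcst, the adaptor DAP10 of lymphoid and myeloid receptors (−0.58). On chromosome 5, 6 of 95 tested genes from 135 to 140 Mb differed, with the paired receptor genes Pilra (−0.49) and Pilrb2 (−0.62) lower and Zan higher. Without WT 87 and 88 only F7 of the genes named in this paragraph passed; F10 (0.48), Mcf2l (0.48), Rab20 (−0.23), Hpn (−0.60), Hcst (−0.42), Pilra (−0.37), Pilrb2 (−0.48) and Zan (0.93) did not. These windows too were picked for their counts.

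The study's interest was in mRNAs of the LPS response with CPEs, and at 1 hr 1 of the 17 it names, Ptgs2, passed the test. For its 6 feedback mRNAs and for Ptgs2 the sites below show, from the longest 3′UTR of GENCODE vM21 (mm10), the CPE nearest the 3′ end and bases around it, 5′ to 3′ on the mRNA's strand, with the motif in capitals. They are shown because the comparison asks whether mRNAs with this element differ when the protein that binds it is missing.
Dusp1: tgggatgactttTTTTATacaacagaataa
Il1rn: cttgaccattcaTTTTATcacttctaacct
Socs1: cagaatatcctaTTTTATatttttacagcc
Socs3: aagagcactattTTTTAATgaaaaaaaaaa
Tnfaip3: aatagtctattaTTTTATgtctattgattt
Zfp36: attgtattaagaTTTTATagtatttatata
Ptgs2: atgcttgtttatTTTTATacttatttaaga
The windows lie at chr17:26505610-26505639 (Dusp1), chr2:24350608-24350637 (Il1rn), chr16:10783858-10783887 (Socs1), chr11:117966079-117966108 (Socs3), chr10:19001073-19001102 (Tnfaip3), chr7:28376934-28376963 (Zfp36) and chr1:150108159-150108188 (Ptgs2), on the plus strand for Il1rn and Ptgs2 and the minus strand for the others. The motif ends 32 bases before the UTR's end in Dusp1, 11 in Socs3 and 51 in Ptgs2. In Socs1 it ends 1630 bases before the end of the longest GENCODE 3′UTR. That 3′UTR runs past the gene's RefSeq end at chr16:10783808, which lies close to the window shown. The forms searched on the sense strand were TTTTAT and TTTTAAT, counted as CPEs here, and TTTTGT, a further form counted apart. Ptgs2 held 4 CPEs, 2 copies of TTTTGT and 14 AREs in 2445 bases. The 3′UTRs of Il10 and Tnf held none of the 3 forms, with 6 and 8 AREs, and that of Ccl2 held 2 copies of TTTTGT, no other form and 1 ARE.

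None of the 6 feedback mRNAs passed limma's test at 1 hr (0 of 6), and 0 had an unadjusted p under 0.05. In the block fit 1 was higher, beside 33.1% of all genes called. The study proposes that CPEB4 sustains such mRNAs late in the LPS response, so 1 hr lies before the times of that claim. Dusp1, the phosphatase that turns off p38 and JNK, had 13.63, 13.85, 13.36 and 13.49 in WT and 13.78, 13.65, 13.70 and 13.92 in Cpeb4-/- mice, a difference of 0.18 ± 0.10 (adjusted p = 0.215), and 0.02 without WT 87 and 88. The values overlapped, as they did for Tnfaip3, the A20 ubiquitin editor (0.08 ± 0.08), Zfp36, which binds AREs (−0.07 ± 0.06), Socs1 (−0.12 ± 0.06), Socs3 (0.14 ± 0.07) and the IL-1 receptor antagonist Il1rn (0.11 ± 0.05). Their adjusted p values lay between 0.167 and 0.491. Without WT 87 and 88 the differences were −0.06 for Tnfaip3, −0.07 for Socs1 and 0.05 for Socs3, and none of the 6 passed. At 6 hr the differences of Dusp1 (−0.40), Tnfaip3 (−0.23), Zfp36 (−0.23) and Socs3 (−0.20) passed limma's test. Those of Il1rn (−0.18) and Socs1 (0.10) did not. At 9 hr Socs1 passed at 0.32, while Dusp1 (−0.18), Tnfaip3 (−0.16), Zfp36 (−0.15), Socs3 (−0.10) and Il1rn (−0.23) did not. The Socs1 difference at 3 hr was −0.38 (adjusted p = 0.0737 by limma). For LPS-treated Cpeb4-/- BMDMs the study reports lower Socs1 mRNA by RT-qPCR, lower SOCS1 protein and reduced Socs1 mRNA stability. Those measures differ from these rlog values, and the opposite sign at 9 hr was not examined further.

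Ptgs2, which encodes the prostaglandin-forming enzyme COX-2, was higher in Cpeb4-/- cells. WT mice 25, 69, 87 and 88 had 13.12, 13.38, 12.84 and 13.05 and Cpeb4-/- mice 2, 3, 55 and 62 had 13.53, 13.79, 13.57 and 13.63, a rise of 0.53 ± 0.11 (adjusted p = 0.0393). The groups came closest at 13.38 and 13.53. The Ptgs2 call held in 2 of the 8 fits without a mouse and not without WT 87 and 88, where the difference was 0.38. In untreated cells it was 0.03 (adjusted p = 0.702), so the first hour raised Ptgs2 by 2.33 ± 0.10 in WT and 2.83 ± 0.06 in Cpeb4-/- mice. Il10, the anti-inflammatory cytokine, had 11.60, 11.58, 11.15 and 11.11 against 11.16, 10.61, 10.86 and 11.10 (difference −0.43 ± 0.15, adjusted p = 0.0979). The monocyte attractant Ccl2 differed by −0.50 ± 0.13 (adjusted p = 0.0679) and Tnf by −0.17 ± 0.05 (adjusted p = 0.0884). Il6 (−0.01), Il1a (−0.11), the neutrophil attractants Cxcl1 (0.08) and Cxcl2 (−0.17), Hif1a (0.21), Vegfa (0.06) and Txnip (0.12) had adjusted p values from 0.108 to 0.923. Several of these values moved without WT 87 and 88: Il10 to −0.66, Il1a to −0.50, Vegfa to −0.35, Hif1a to −0.0025, Cxcl1 to 0.24, Il6 to 0.10 and Cxcl2 to −0.11. The Ccl2 difference was then −0.34, and none of the 17 passed.

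To separate differences present before LPS from those that arose in the first hour, the change from 0 to 1 hr was taken within each mouse and compared between genotypes. By limma no gene passed (0 of 13118, 0%), with 1736 at an unadjusted p under 0.05 and the smallest adjusted p, that of Rbpjl, at 0.102. An interaction fit of the 16 libraries without the mouse called 2 genes, Apold1 and Rbpjl, and the fit of all 40 with the mouse as a block called 4, which added Id1, an inhibitor of helix-loop-helix factors, and Trp53rka. The change in Cpeb4-/- minus that in WT mice was 3.19 ± 0.33 for Rbpjl and −1.42 ± 0.25 for Apold1 (adjusted p = 0.374). It was −0.67 for Id1 and −0.43 for Trp53rka, both named for these calls.

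**Figure D4:**
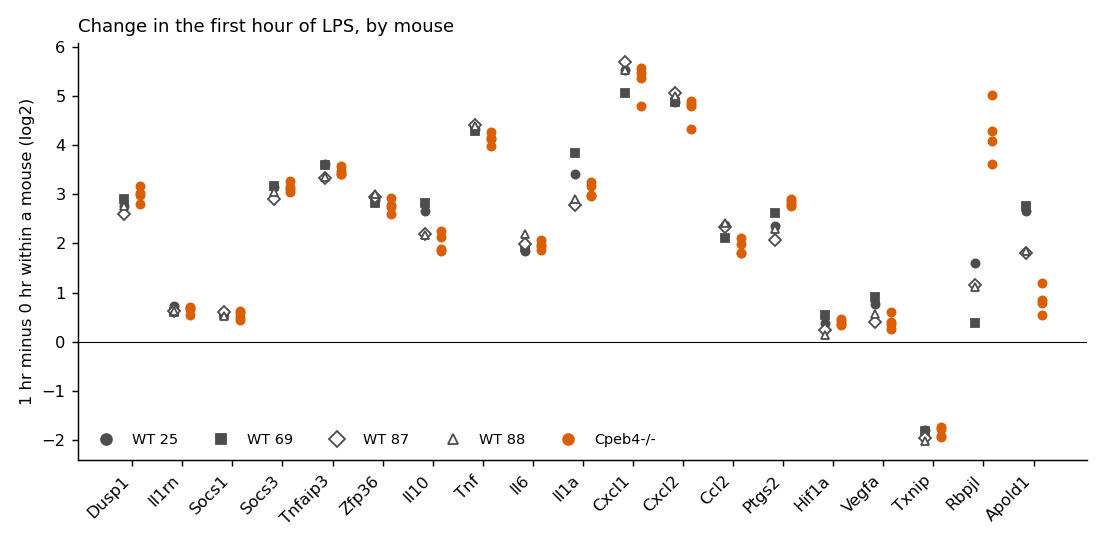
Change of the rlog value from 0 to 1 hr LPS within each mouse (vertical axis, log2) for the 17 mRNAs the study names and for Rbpjl and Apold1, with WT mice in grey symbols and the 4 Cpeb4-/- mice in orange. In most genes the genotypes overlap or nearly so, while in Rbpjl the Cpeb4-/- mice lie from 3.62 to 5.02 above 0.39 to 1.60 in WT, and in Apold1 they lie below all WT mice.

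Nearly all genes that differed at 1 hr had a difference of the same sign in untreated cells of the same mice. Of the 128 higher genes, all 128 had a positive difference at 0 hr and 57 passed there, and of the 123 lower genes 121 had a negative one and 48 passed. Their median differences were 0.39 and −0.31 at 0 hr, and 0.56 and −0.41 at 1 hr. The 0 and 1 hr libraries share mice, so these are values side by side and not an independent check.

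Of the genes that LPS itself moved, those that rose by at least 2 on the log2 scale in each genotype numbered 117, of which 9 differed between genotypes (7.69%, beside 1.91% of all tested genes), and 3 without WT 87 and 88. The 3 higher were Ptgs2, the adhesion molecule gene Flrt3 (0.96) and the semaphorin gene Sema6d (0.83). The 6 lower were Cd40, Ch25h, the enzyme that makes the antiviral 25-hydroxycholesterol (−0.46), the fatty acid receptor gene Gpr84 (−0.39), Marcksl1 (−0.37), Rab20 and the TNF family ligand gene Tnfsf9 (−0.28). Of the 9, Cd40, Gpr84 and Sema6d passed without WT 87 and 88, while Ptgs2 (0.38), Flrt3 (0.79), Ch25h (−0.45), Marcksl1 (−0.29), Rab20 (−0.23) and Tnfsf9 (−0.27) did not. The 117 genes were chosen with the 1 hr values, so the count is a description with no test, and the names were taken after their values were seen. The median difference over the 117 was 0.03, and −0.06 without WT 87 and 88, and 1 of the 138 genes that LPS lowered by at least 1 in each genotype passed (Fam84b, 0.50).

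Some genes of macrophage identity were lower. Of 24 tested members, 3 fell and none rose, beside 0.938% lower and 0.976% higher of all tested genes. The 3 were C1qc, a subunit of the complement recognition protein C1q (−0.42 ± 0.07), Cd14, the LPS co-receptor (−0.38 ± 0.05), and Cebpb, a myeloid transcription factor (−0.36 ± 0.07). Without WT 87 and 88 none of the 24 passed, and the differences of C1qc, Cd14 and Cebpb were −0.32, −0.37 and −0.26. The median difference of the list was −0.12 with and without that pair, beside 0.02 over all tested genes, and 17 of 24 were below 0. Cd14 had 16.31, 16.34, 16.36 and 16.34 in WT and 16.07, 15.92, 15.97 and 15.87 in Cpeb4-/- mice. Fewer macrophages and less of these mRNAs per macrophage cannot be told apart in such bulk libraries, and the part of the lower macrophage marker sum in these results was not tested. Among other surface genes of macrophages, Fcgr4, an activating Fc receptor, fell by 0.39, Cd37, a tetraspanin, by 0.52, and the Fc receptor-like gene Fcrls, singled out after its values were seen, by 0.65. Fcgr4 did not pass without WT 87 and 88 (−0.32).

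The 5 genes with the highest mean rlog among the 251, a measure that also grows with transcript length, were Apoe, Gpnmb, Spp1, Cd14 and Laptm5. Apoe, the cholesterol-carrying apolipoprotein E, had 17.60, 17.71, 17.78 and 17.54 in WT and 17.24, 17.01, 17.01 and 17.004 in Cpeb4-/- mice, a difference of −0.59 ± 0.08 (adjusted p = 0.00897). Spp1, the matrix cytokine osteopontin, fell by 0.54 ± 0.09 and the lysosomal membrane gene Laptm5 by 0.22 ± 0.05. Gpnmb, a glycoprotein of lipid-laden and lysosome-rich macrophages, rose by 0.35 ± 0.07. In a list of 13 tested genes drawn up for LXR targets and cholesterol efflux, 2 fell and none rose, beside 0.938% of all tested genes lower. The 2 were Apoe and Ch25h, the latter on the list as the enzyme that makes 25-hydroxycholesterol. Of the 13, 9 were above 0 and 4 below. The list median was 0.10, or 0.03 without WT 87 and 88. In that fit Apoe passed, while Spp1 (−0.57), Laptm5 (−0.18), Gpnmb (0.34), Cd14 (−0.37) and Ch25h (−0.45) did not.

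Of the genes of MHC class II, which presents peptides to helper T cells, 2 rose in Cpeb4-/- cells and none fell. Ciita, the coactivator that switches these genes on, had 7.73, 7.47, 7.54 and 7.55 in WT and 8.16, 8.77, 8.54 and 8.69 in Cpeb4-/- mice, a rise of 0.97 ± 0.13 (adjusted p = 0.00897) or 1.95-fold. H2-Aa, the alpha chain of I-A, had 11.58, 11.62, 12.07 and 11.99 against 12.27, 12.42, 12.30 and 12.38, a rise of 0.53 ± 0.11 (adjusted p = 0.045). WT 87 and 88 were the higher WT mice for H2-Aa, and without them its difference was 0.74. Of the 10 tested members these 2 passed, beside 1.91% of all tested genes. Of the 10, 8 were above 0, and the median was 0.30, or 0.51 without WT 87 and 88. In that fit 6 of the 10 passed, all higher, beside 0.747% of all tested genes. H2-Eb1 (0.45), H2-Ab1 (0.36) and Cd74 (0.35) had adjusted p values of 0.0757, 0.107 and 0.0911 with all mice, and without the pair they passed at 0.71, 0.62 and 0.57. In untreated cells the Ciita and H2-Aa differences were 0.73 and 0.55.

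Class II promoters carry a conserved Y box, the sequence ATTGG or its complement CCAAT, near the start. RefSeq promoter sequence (GRCm38.p6, 250 bases before to 50 after the start) was at hand for H2-Aa and H2-Eb1 but not for Ciita or H2-Ab1. The stretches around the box, in capitals on the gene's strand, are shown because H2-Aa rose and H2-Eb1 had a like value.
H2-Aa: agagaattttctgATTGGttctggcgagtt
H2-Eb1: gATTGGctcccagcactggccttacCCAAT
They lie at chr17:34287855-34287884 on the minus strand and chr17:34305807-34305836 on the plus strand. The box lies 48 bases before the start of H2-Aa and 59 and 35 bases before that of H2-Eb1. ATTGG on either strand was in 37.4% of 32851 such promoters, so its presence is a description of these genes and not of the difference. MHC class I presentation genes went the other way in value, with 15 of 16 tested members below 0. Their median was −0.17, or −0.12 without WT 87 and 88. By limma none passed (0 of 16), with 11 at an unadjusted p under 0.05, beside 35.3% of all genes. The block fit called 7 lower, beside 33.1% of all genes called. Without WT 87 and 88, 1 passed as lower, beside 0.747% of all genes.

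Among cytokine, chemokine and interferon-stimulated genes the 1 hr values leaned lower, and the counts of falls below stand beside 0.938% of all tested genes. Of 17 pro-inflammatory cytokine genes 2 fell, Ebi3, a subunit of IL-27 and IL-35 (−0.30), and Tnfsf9, and 12 were below 0 at a median of −0.16, and −0.15 without WT 87 and 88. Of 19 chemokine genes 0 passed by limma, with 11 at an unadjusted p under 0.05, beside 35.3% of all genes. The block fit called 7 of the 19, all lower, beside 33.1% of all genes. At 1 hr 17 were below 0, and the median was −0.20, or −0.12 without WT 87 and 88. The largest chemokine value was that of Ccl7, at −0.67 ± 0.15 (adjusted p = 0.0543). Of 38 interferon-stimulated genes 2 fell, Ifit3, which binds viral RNA (−0.40), and Rtp4, a receptor transport protein gene (−0.40), 31 were below 0, and the median was −0.15, or −0.10 without the pair. No member of the 3 lists passed without WT 87 and 88, where Ebi3 (−0.25), Tnfsf9 (−0.27), Ifit3 (−0.31) and Rtp4 (−0.29) kept their sign. In untreated cells of the same mice the medians of the 3 lists were 0.03, −0.06 and −0.18 in the same order. The lean of the interferon-stimulated genes was thus present before LPS. The first hour moved that list by a median of 0.07 in WT and 0.08 in Cpeb4-/- mice.

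Smaller groups held members of either direction. Among prostaglandin and leukotriene genes Ptgs2 and the platelet-activating factor hydrolase gene Pla2g7 (0.64) rose, and Ltc4s, the leukotriene C4 synthase gene, fell by 0.72. The matrix metalloproteinase genes Mmp8 (0.86 ± 0.11) and Mmp12 (0.54 ± 0.11), a neutrophil-type collagenase and the macrophage elastase, rose, as did the lysosomal protease gene Ctsk (0.60). Casp4, the mouse caspase-11 sensor of cytosolic LPS, had 11.07, 11.07, 10.95 and 11.00 in WT and 11.74, 11.63, 11.77 and 11.69 in Cpeb4-/- mice, a rise of 0.68 ± 0.05 (adjusted p = 0.00033). Of the signalling genes, Tlr6, which pairs with TLR2 (0.36), Map3k1, a MAP kinase kinase kinase (0.26), the transcription factor gene Klf4 (0.45) and the interleukin receptor gene Il7r (0.53) rose. Tob2, an adaptor of the CCR4-NOT deadenylase, rose by 0.41, the 1 member of 17 deadenylase genes that passed, beside 1.91% of all genes. Of the 17 genes of the CPEB family and cytoplasmic polyadenylation 0 passed by limma. At an unadjusted p under 0.05 were 4 of these 17, beside 35.3% of all genes. The block fit called 5 of them higher and 1 lower, beside 33.1% of all genes called. The stress factor gene Ddit3 fell by 0.38, and the actin regulator gene Rac2 by 0.22. Of the genes in this paragraph, Mmp8, Ctsk and Casp4 passed without WT 87 and 88. Those that did not were Ptgs2 (0.38), Pla2g7 (0.55), Ltc4s (−0.53), Mmp12 (0.46), Tlr6 (0.36), Map3k1 (0.21), Klf4 (0.41), Il7r (0.37), Tob2 (0.33), Ddit3 (−0.33) and Rac2 (−0.19).

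Lists of large housekeeping complexes lay lower in their medians while none of their members passed. The 77 subunits of the respiratory complexes had a median difference of −0.35 with 76 below 0, the 82 cytosolic ribosomal proteins −0.25 with 73 below 0, the 76 mitochondrial ribosomal proteins −0.25 with 72 below 0, and the 38 proteasome subunits −0.21 with 36 below 0. By limma on the 8 libraries 0 of these genes passed. At an unadjusted p under 0.05 were 59, 28, 39 and 17 in the same order, beside 35.3% of all tested genes. The block fit of 40 libraries called 62, 33, 48 and 19 of them, all lower. That fit called 33.1% of all tested genes, 2284 higher and 2053 lower. These medians rested on WT 87 and 88, whose respiratory and ribosomal values were the highest of the 8: without this pair they were −0.11, −0.04, −0.07 and −0.04. Chromatin regulators went the opposite way, with 44 of 51 above 0 at a median of 0.18, and 0.08 without the pair. The part of WT 87 and 88 standing apart, of their cage and of any further cause in these lists was not tested.

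**Figure D5:**
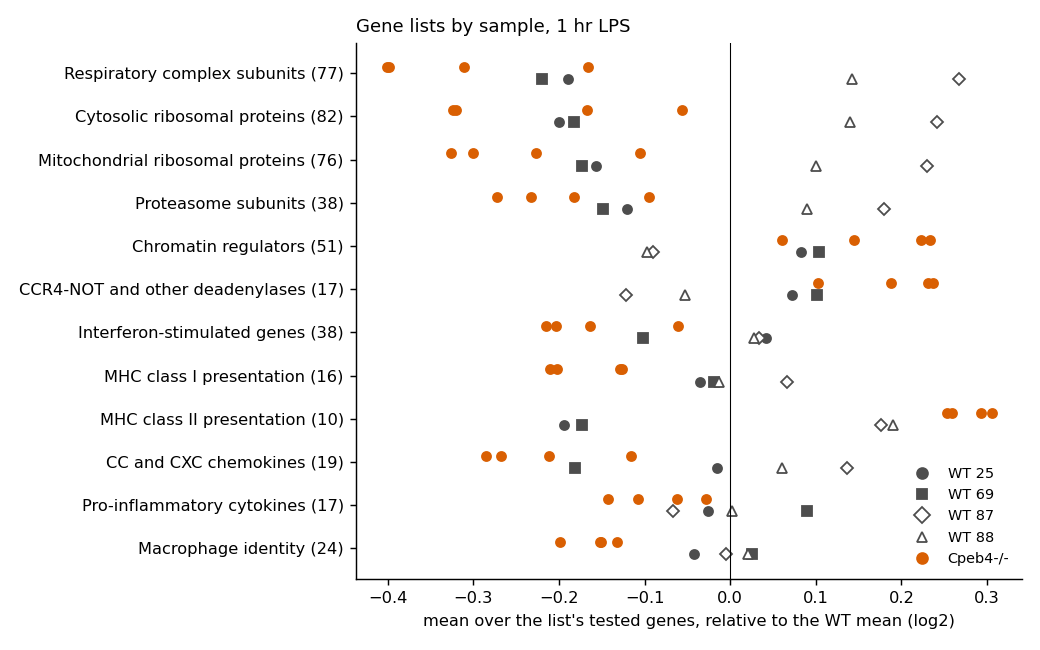
Mean rlog over the tested genes of 12 lists (rows, number of genes in brackets) for each mouse at 1 hr LPS, relative to the mean of the WT mice (horizontal axis, log2), with WT in grey symbols and Cpeb4-/- in orange. For the respiratory, ribosomal and proteasome lists WT 87 and 88 stand alone on the right while WT 25 and 69 lie among the Cpeb4-/- mice, whereas for macrophage identity and MHC class I all 4 Cpeb4-/- mice lie to the left of all WT mice.

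The 3′UTRs of the genes that differed were described from GENCODE vM21, where 120 of the 128 higher and 115 of the 123 lower genes had one. A CPE, as TTTTAT or TTTTAAT, was present in 68.3% of the higher genes, in 47.0% of the lower genes and in 61.8% of the 11950 tested genes with a 3′UTR. TTTTGT was in 67.5%, 41.7% and 58.8% of them in the same order. The higher genes also had longer 3′UTRs than the lower ones, with medians of 1379.5 and 653 bases beside 1136 bases over all, and a lower median GC content, 43.1% against 48.4%. At least 2 AREs were in 60.0% of the higher and 30.4% of the lower genes. Over all tested genes the median difference was 0.07 with a CPE and −0.08 without, and 0.02 and −0.03 without WT 87 and 88. Within bands of 3′UTR length the medians with and without a CPE were −0.06 and −0.13 under 500 bases, 0.03 and −0.04 from 500 to 1500 bases, and 0.12 and −0.0026 from 1500 bases up. Length, base content and motif go together in these genes, and their separate parts in the difference were not tested.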

How the data were processed

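Per the labels and the study's methods, poly(A) RNA libraries of the BMDMs were made with 8 amplification cycles, aligned to mm10 with STAR 2.3.0e and counted with featureCounts, and the authors deposited a table of rlog values made with DESeq2, which are on a log2 scale. Counts were not used here, so depth per sample is unknown and no counting interval is given; strand and annotation of the counting are not given in the sources used here.

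Genes whose rlog averaged log2(5) or more in the 8 libraries of 1 hr were tested with limma 3.58.1 in R 4.3.3 (lmFit, eBayes with trend, no covariate), with p-values adjusted by Benjamini-Hochberg over 13118 genes and called under 0.05. The change from 0 to 1 hr was tested on the difference within each mouse, since each mouse gave both libraries; same-mouse deviations at 0 and 1 hr correlated at 0.257 to 0.769, and 7 of 8 libraries matched their own mouse best. Each group has 4 mice, so p-values of the fits with 1 value a mouse measure the spread between mice. The fits of 16 or 40 libraries also draw on the spread between libraries of the same mouse. Their block versions use 1 correlation within mice for all genes, 0.23 over 40 libraries and 0.57 over those of 0 and 1 hr. Their p-values and counts therefore do not rest on the spread between mice alone. Alternatives were another filter, eBayes settings, batch, scaling, array weights, replicate blocks and each mouse left out. Named genes were Cpeb4, the 12 largest rises and falls, up to 3 called members a direction of each list described (up to 2 of any size where fewer than 2 were called), the 17 mRNAs the study names and the 5 called genes of highest mean rlog; some of these are not reported here. Members, lists and tests were chosen with earlier results of these data known, and list results are counts and medians with no test of the list. The fit was tested on simulated data before use. Positions are those of RefSeq GRCm38.p6, found for 12792 tested genes; 3′UTRs are the longest per gene in GENCODE vM21. Promoter sequences are from RefSeq.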

Additional observations from a re-analysis of the deposited data

Results flagged for a closer look

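Of 298 groups of 4 mice examined at 1 hr, over single genes and list means, 12 held a mouse whose gap to the nearest of the others passed Dixon's 95% limit for 4 samples; chance flags about 1 group in 20. Among genes, Cpeb4-/- mouse 2 had an Apoe value of 17.245 beside 17.004 to 17.014 in the others, a Zfp207 value of 12.035 beside 12.146 to 12.155, and a Zfp704 value of 9.5472 beside 9.8032 to 9.8419, each time the value nearest WT. Cpeb4-/- mouse 62 had a Klra1 value of 1.5688 beside 1.3423 to 1.3658. WT mouse 87 had an Enho value of 4.3098 beside 3.7395 to 3.7732, and WT mouse 69 an Mmp12 value of 15.35 beside 14.986 to 14.993.

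Among list means relative to WT, Cpeb4-/- mouse 2 stood apart for TLR4 receptors, adaptors and kinases (−0.0295 beside 0.0843 to 0.0938) and Cpeb4-/- mouse 62 for BCL2 family genes, IAPs and caspases (0.0137 beside 0.05 to 0.0551). WT mouse 69 stood apart for interferon-stimulated genes (−0.102 beside 0.0274 to 0.0416) and cholesterol synthesis (0.0329 beside −0.0123 to −0.00883). WT mouse 25 did so for glycolysis (−0.047 beside 0.0124 to 0.0195) and WT mouse 88 for the mTORC1 pathway (0.0415 beside −0.0189 to −0.0111).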

How the results depend on the processing

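The count of 251 genes at 1 hr stayed within 1.5 times its value with no filter (223), a stricter filter at a mean of 5 (218), robust eBayes (235), no trend in eBayes (172), quantile normalization (245) and median centring (237). It was 146 with batch as a covariate and 1172 with array weights, and 98 without WT 87 and 88, an alternative chosen after seeing the data. Leaving out 1 mouse gave 39 to 2437 genes. With all 40 libraries it was 4198 without and 4337 with the mouse as a replicate block, and 3413 with the block over the 0 and 1 hr libraries; the cause of these moves was not tested. The block joins libraries of the same mouse and pairs no WT with a Cpeb4-/- mouse.

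For the change within mice, 0 genes became 2 without the replicate block (16 libraries) and 4 with the block over 40 libraries, 1 without WT 87 and 88 (Bcl2a1a), and 0 to 3 when 1 mouse was left out. The 1 hr Cpeb4 difference of 0.37 became −0.39 without WT 87 and 88, never passing the test at 1 hr. Of 63 named genes that passed, 20 did so in every alternative and 0 changed direction; 30 of 69 list medians moved by more than the spread between mice (1 SD) in some alternative. No counts were at hand to say what depth limits.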

Other observations

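Among genes that did not pass the test, 25 differed by at least 1 on the log2 scale, 17 higher and 8 lower, beside 22 among those that did, and in the genes below mice of the same genotype differed. They were named after their values were seen. The ribosomal pseudogene Rps15a-ps8 had 7.34, 7.40, 3.62 and 7.97 in WT mice 25, 69, 87 and 88 and 3.00 to 3.44 in the Cpeb4-/- mice (difference −3.40, adjusted p = 0.0621). The X-linked 5730416F02Rik had 3.02 to 3.91 in WT and 7.64, 7.46, 3.32 and 7.27 in Cpeb4-/- mice 2, 3, 55 and 62 (2.97). Hal, the enzyme that breaks down histidine, had 8.43, 5.45, 8.12 and 5.29 in WT and 8.86 to 9.89 in Cpeb4-/- mice (2.69), with its neighbour Amdhd1, the third enzyme of that pathway, at 1.50.

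Other genes split mice across genotypes. Rims2 was high in WT 87 (7.47) and in Cpeb4-/- 3 and 55 (8.01 and 7.66), against 4.12 to 4.61 in the other 5 mice. Dpys, on the same chromosome, split the same way, at 7.78, 7.23 and 7.34 against 5.28 to 5.43. Bcl2a1a, an anti-apoptotic gene with near copies, was high in WT 88 (6.43) and in all 4 Cpeb4-/- mice (5.97 to 6.13) and low in the other WT mice (3.61 to 3.87).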
